A study of Mus musculus with 2 samples.

Results

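SR proteins, heterogeneous nuclear ribonucleoproteins (hnRNPs) and the factors that recognise the branch site are the RNA-binding proteins that decide where the spliceosome cuts a pre-mRNA. The genes described here are the protein-coding genes whose GENCODE M21 symbol begins with Srsf, Hnrnp, Sf3a, Sf3b or U2af and the pair Tra2a and Tra2b. There were 45 of them among 21461 nuclear protein-coding genes: 11 SR genes, 2 Tra2 genes, 20 hnRNP genes, 3 SF3A genes, 6 SF3B genes and 3 U2AF genes. They were taken by symbol and not by a measured value, though the rule was set with earlier results of these data known.

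SR proteins bind exonic enhancers through RNA recognition motifs and recruit the splicing machinery through arginine-serine rich tails, while hnRNPs coat nascent RNA and often oppose exon inclusion. U2AF binds the polypyrimidine tract and the AG at the end of an intron, and the SF3A and SF3B complexes then anchor the U2 snRNP on the branch site. Many of these genes limit their own protein by splicing: a poison exon or a retained intron puts a stop codon where nonsense-mediated decay (NMD) can act on the transcript, or keeps the transcript in the nucleus. Intron retention in such genes, Sf3b1 among them, is a known feature of the erythroblasts that follow the cell stage sampled here.

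The series holds 1 group of 2 libraries of total RNA from erythroid colony-forming units (CFU-E), the committed red cell progenitors of the marrow, isolated from the bone marrow of male C57BL/6J mice at 5 to 6 weeks with no treatment named in the labels. Each library was made from 100 ng of RNA depleted of ribosomal RNA with the ScriptSeq kit, so unspliced nuclear RNA was measured together with mature mRNA. The labels call the libraries biological replicates 1 and 2, with a biosample each but a shared donor identifier, and part of their difference may therefore be technical. There was no second group to compare with, so everything below describes levels, shares of transcript classes and the spread between the 2 libraries, and no test between conditions was possible.

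Replicate 1 held 62576357 expected counts and replicate 2 held 36889517. The mean fragment length was 223.6 bases in replicate 1 and 182.95 bases in replicate 2. Its part in the TPM of short transcripts was not tested. Of the marker lists, 10 of 10 erythroid genes reached 10 TPM (a level per transcript length and library size) in both libraries and summed to 10732 and 4911 TPM. All 8 granulocyte genes reached it too and summed to 1212 and 613 TPM, against 1 of 7 monocyte, 1 of 6 B cell, 0 of 5 T and NK cell and 0 of 5 megakaryocyte genes, with no marker at 0 counts in both libraries. The part of other marrow cells in the splicing factor values was not tested, and in bulk RNA fewer cells of a type and less RNA per cell cannot be told apart. Deposited TPM ran higher in replicate 1 for most genes: the median log2 ratio of replicate 1 over replicate 2 was 0.64 over nuclear protein-coding genes with a mean of 1000 counts or more and 0.56 over the splicing factor genes, so a TPM ratio near those values is the general offset between the libraries.

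Most of the splicing factor genes were well expressed. In both libraries 42 of the 45 (93.3%) reached 1 TPM, against 23.9% of nuclear protein-coding genes. At 5 TPM the count was 34 (75.6% against 8.82%) and at 10 TPM it was 24 (53.3% against 4.79%). Together they took 1200 TPM in replicate 1 and 819 TPM in replicate 2, which was 0.966% and 1.09% of the TPM of all nuclear protein-coding genes. Most of the deposited TPM thus lay outside nuclear protein-coding genes. With TPM rescaled over those genes alone, Srsf10 went from 57.2 to 460.9 in replicate 1 and from 63.7 to 850.3 in replicate 2. The limits of 1, 5 and 10 deposited TPM are therefore stricter than the same limits on the rescaled values. After rescaling, 42 of the 45 genes reached 10 TPM in both libraries. The hnRNPs made up the larger part of the 1200 and 819 TPM, at 676 and 474 TPM, followed by the SR genes at 381 and 254 TPM. The branch-site machinery was lower: SF3B genes summed to 50.2 and 28.9 TPM, U2AF genes to 30.5 and 17.5 TPM and SF3A genes to 12.7 and 6.78 TPM.

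**Figure D1:**
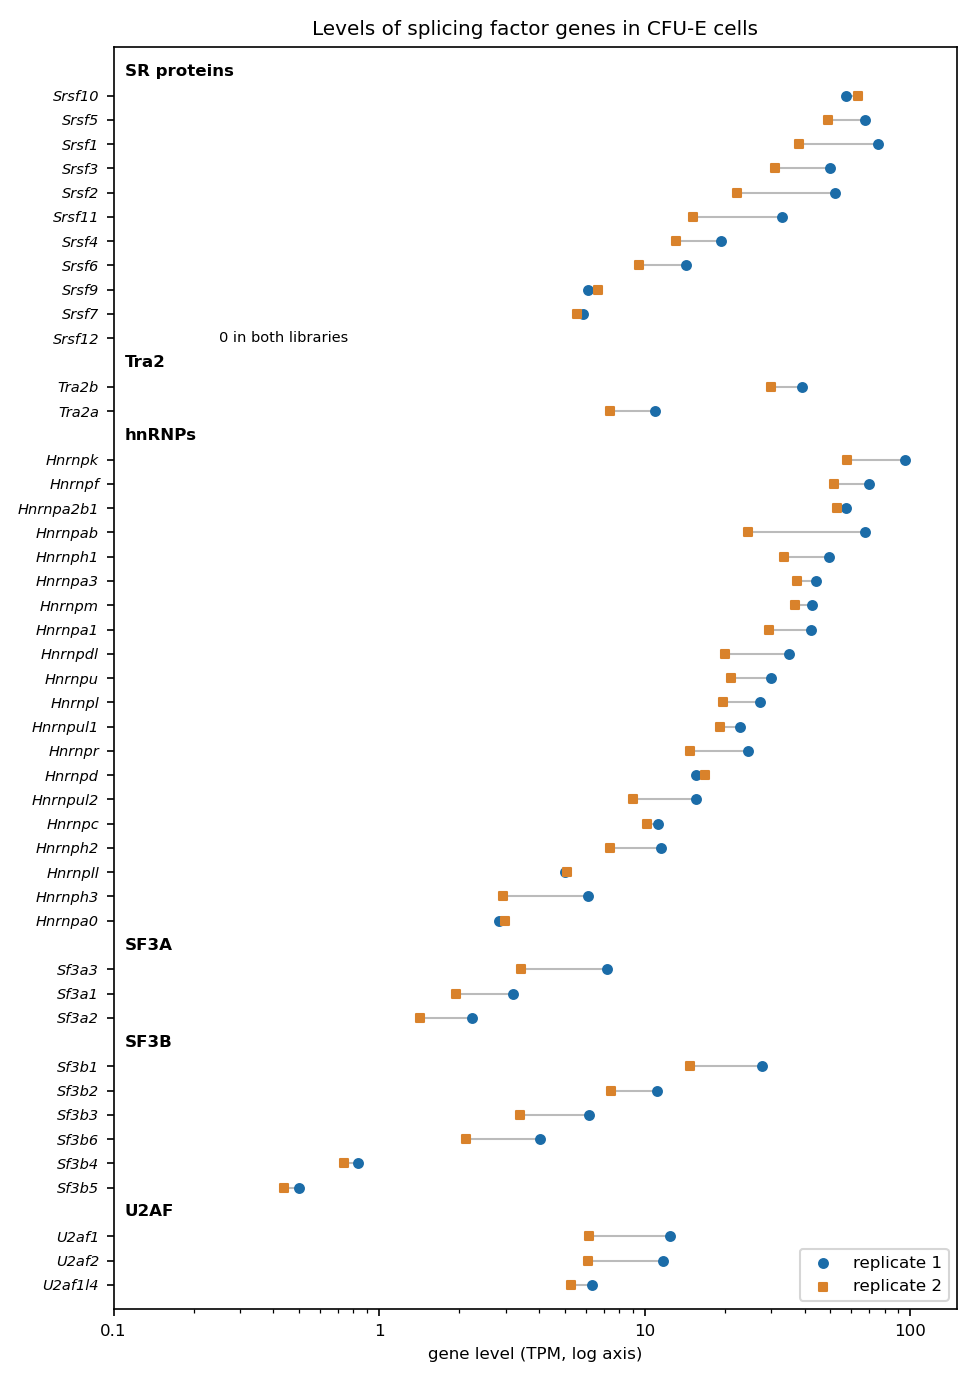
Gene level in TPM on a log axis for the 45 genes by family, with 1 point for each library and a grey line joining them. Most SR and hnRNP genes lie above 10 TPM and most SF3A, SF3B and U2AF genes below it, and Srsf12 was at 0 in both libraries.

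Among the SR genes, 7 of 11 reached 10 TPM in both libraries. Srsf10, which encodes a regulator that represses splicing when dephosphorylated, had 57.2 TPM in replicate 1 and 63.7 TPM in replicate 2. Srsf5 had 67.6 and 48.9 TPM, and Srsf1, the classical splicing factor ASF/SF2, had 75.4 and 38.2 TPM. By gene TPM these 3 led the family in both libraries, with Srsf1 first in replicate 1 and Srsf10 first in replicate 2. On transcripts of the protein-coding class alone Srsf10 had 17.3 and 13.9 TPM, below Srsf3 with 21.02 and 14.65 TPM. Srsf3, which encodes one of the smallest SR proteins and also takes part in mRNA export, had 49.99 and 31.0 TPM. Srsf2, a factor that stays in the nucleus, had 52.1 and 22.4 TPM. Both had the higher TPM in replicate 1. For both the excess was of TPM and not of depth-scaled counts, whose log2 ratio of replicate 1 over replicate 2 was -0.008 for Srsf3 and -0.20 for Srsf2. In Srsf2 a 433-base transcript, Srsf2-205, had 26.6 TPM in replicate 1 and 0 in replicate 2. Srsf11, Srsf4 and Srsf6 followed at 33.0 and 15.2, 19.4 and 13.1, and 14.3 and 9.50 TPM. Srsf9 had 6.10 and 6.68 TPM and Srsf7 had 5.84 and 5.56 TPM, so the 2 lowest of the detected SR genes were nearly level on the TPM scale. Given the offset between the libraries they were not level once scaled for depth. Their log2 ratios of replicate 1 over replicate 2 were then -0.36 for Srsf9 and -0.54 for Srsf7. Srsf12 was at 0 expected counts in both libraries. A count of 0 allows up to 3 counts in a library, so Srsf12 was not detectable at this depth.

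The Tra2 genes encode a pair of SR-like activators that bind purine-rich enhancers. Tra2b had 39.0 and 29.9 TPM and Tra2a 10.9 and 7.38 TPM. The log2 ratio of Tra2b over Tra2a was 1.84 in replicate 1 and 2.02 in replicate 2 (mean 1.93 ± 0.12, SD, n = 2). Restricted to transcripts of the protein-coding class the mean log2 ratio was 0.21, since only 35.7% and 26.0% of the Tra2b TPM lay in that class. The table lists a single transcript for Tra2a, a coding one, so a like split could not be made for it.

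All 20 hnRNP genes were above 1 TPM and 15 reached 10 TPM in both libraries. Hnrnpk, whose product binds C-rich RNA through KH domains, was the highest of the 45 by gene TPM in replicate 1. It had 95.5 TPM there, at rank 131 of all nuclear protein-coding genes, and 57.8 TPM and rank 145 in replicate 2. Its coding-class transcripts had 47.2 and 25.3 TPM, below the 69.9 and 51.6 TPM of Hnrnpf, all in that class. Hnrnpf, which encodes a reader of G-rich tracts, had 69.9 and 51.6 TPM. Hnrnpa2b1, a member of the A/B group that carries RNAs to the cytoplasm, had 57.4 and 53.2 TPM. Hnrnpab had 67.3 TPM in replicate 1 and 24.6 TPM in replicate 2 and was the member furthest apart on the TPM scale. Hnrnph1, Hnrnpa3, Hnrnpm and Hnrnpa1 had replicate means between 35.7 and 41.5 TPM. The matrix-associated Hnrnpu, which organises chromatin as well as binding RNA, had 29.8 and 21.2 TPM. Hnrnpdl, Hnrnpl, Hnrnpul1, Hnrnpr, Hnrnpd, Hnrnpul2, Hnrnpc and Hnrnph2 lay between these and the lowest, with replicate means from 27.5 TPM in Hnrnpdl down to 9.48 TPM in Hnrnph2. At the low end Hnrnpa0, a gene without introns in its coding transcript, had 2.83 and 2.99 TPM. Hnrnph3 had 6.14 and 2.92 TPM, and Hnrnpll, known for changing CD45 splicing in lymphocytes, had 4.99 and 5.08 TPM.

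Sf3b1, which encodes the large scaffold that grips the branch-site adenosine, stood above the rest of the U2 machinery with 27.6 and 14.8 TPM. Its partners were lower: Sf3b2 had 11.1 and 7.48 TPM, Sf3b3 6.18 and 3.39 TPM and Sf3b6, the subunit that contacts the branch adenosine, 4.02 and 2.13 TPM. The log2 ratio of Sf3b1 over Sf3b3 was 2.16 and 2.12 (mean 2.14 ± 0.03, SD, n = 2), a difference far larger than the spread between the libraries. On coding-class transcripts alone the mean log2 ratio was 1.56, and the table lists a single transcript for Sf3b3. Sf3b4 had 0.83 and 0.74 TPM and Sf3b5 0.50 and 0.44 TPM, the only detected members under 1 deposited TPM. Rescaled over nuclear protein-coding genes, Sf3b4 had 6.68 and 9.88 TPM and Sf3b5 had 4.03 and 5.88 TPM. Of the SF3A genes, Sf3a3 had 7.22 and 3.42 TPM, Sf3a1 3.19 and 1.94 TPM and Sf3a2 2.24 and 1.42 TPM. The RNAs of the U2AF heterodimer were balanced on the TPM scale. U2af1, the small subunit that reads the AG, had 12.4 and 6.17 TPM. U2af2, the large subunit that binds the pyrimidine tract, had 11.7 and 6.11 TPM. Their log2 ratio, U2af2 over U2af1, was -0.09 and -0.01, within 2 SD of 0. By expected counts, which are not divided by length, the mean log2 ratio was 1.38. U2af1l4 had 6.36 and 5.26 TPM, but its row is uncertain. M21 places a read-through gene, Gm49396, over it on the same strand, and several transcripts filed under U2af1l4 in the table belong to that gene.

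Relations between paralogs and partners were read as log2 TPM ratios within each library, which the offset between the libraries does not touch. Of 16 pairs of paralogs or partners, 10 had a mean ratio more than 2 SD from 0 with the same sign in both libraries. Srsf1 stood 8.41-fold over Srsf9, a relative with the same domain layout, with log2 ratios of 3.63 and 2.52. Srsf3 stood 6.91-fold over Srsf7 with log2 ratios of 3.10 and 2.48. Hnrnpl exceeded Hnrnpll 4.59-fold and Srsf5 exceeded Srsf6 4.94-fold. On coding-class transcripts alone the mean log2 ratios of these pairs kept their sign but changed in size: 2.29 for Srsf1 over Srsf9, 1.62 for Srsf3 over Srsf7, 3.01 for Hnrnpl over Hnrnpll and 1.501 for Srsf5 over Srsf6. The table lists a single transcript for Srsf7. By expected counts the mean log2 ratios were 4.59 for Srsf1 over Srsf9, 2.88 for Srsf3 over Srsf7, 1.06 for Hnrnpl over Hnrnpll and 1.38 for Srsf5 over Srsf6. Hnrnpa2b1 over Hnrnpa1 had a mean log2 ratio of 0.65 by TPM and 1.59 by counts. Hnrnpul1 over Hnrnpul2 had 0.81 by TPM and 0.04 by counts. Hnrnph1 exceeded Hnrnph2 4.40-fold by gene TPM, with log2 ratios of 2.10 and 2.18, but the mean log2 ratio was 0.12 on coding-class transcripts alone. The pairs Srsf2 with Srsf10, Hnrnpa1 with Hnrnpa3, Hnrnpd with Hnrnpab, Hnrnpu with Hnrnpul1, U2af2 with U2af1 and U2af1 with U2af1l4 were not separated from 0 by that measure. With n = 2 this describes the libraries and is no test.

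Many of these transcripts were not of the coding class. GENCODE sorts a gene's transcripts into coding, retained intron, NMD and processed transcript, and the share of a class is the part of the gene's summed transcript TPM that falls in it. At least 1 retained-intron or NMD transcript is listed in the table for 23 of the 45 genes. The other 22 had no such transcript to which a read could be assigned, and for 13 of those M21 does list one: Srsf7, Srsf9, Tra2a, Hnrnpa1, Hnrnpa2b1, Hnrnpc, Hnrnpul1, Hnrnpul2, Sf3b2, Sf3b3, Sf3b6, U2af1 and U2af2. For Srsf9 and Hnrnpa1 the M21 entries are NMD transcripts only. In those 13 genes the deposited tables had no such model to take a read, so their 0% share is no measurement of these classes. The table holds 75 of the 121 retained-intron transcripts that M21 lists for the 45 genes.

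In the 23 genes the median retained-intron share was 31.2% of TPM in replicate 1 and 32.5% in replicate 2. The same medians over all 4157 nuclear protein-coding genes with a retained-intron or NMD transcript and 50 counts or more in both libraries were 9.16% and 14.7%. Over the 1484 of them with 1000 counts or more they were 19.3% and 21.6%. All 23 members have a retained-intron transcript. Over the 3749 genes that have one the medians were 13.0% and 18.4%, and over the 1362 deeper ones 21.8% and 24.1%. The gene percentages that follow include genes with NMD transcripts only, which are at 0% by construction. The share passed 20% in both libraries in 15 of the 23 (65.2%), where 27.9% of all genes and 41% of the deeper ones did. It passed 50% in both in 6 of the 23 (26.1%), where 7.02% of all genes and 8.89% of the deeper ones did. Over the 19 members that also had 1000 counts or more, 13 passed 20% (68.4%) and 5 passed 50% (26.3%). These 6 were Srsf11, Hnrnpll, Hnrnph3, Hnrnpl, Hnrnpm and Hnrnpk. Retained-intron transcripts are short, with a median of 916.5 bases over the 28 at 1 TPM or more in both libraries against 2370 bases over the 61 coding ones. TPM divides by length, so the same transcripts held a smaller part of the counts. The median retained-intron share of expected counts was 16.4% and 18.9%. It was 4.37% and 6.96% over all genes and 8.26% and 8.74% over the deeper ones.

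**Figure D2:**
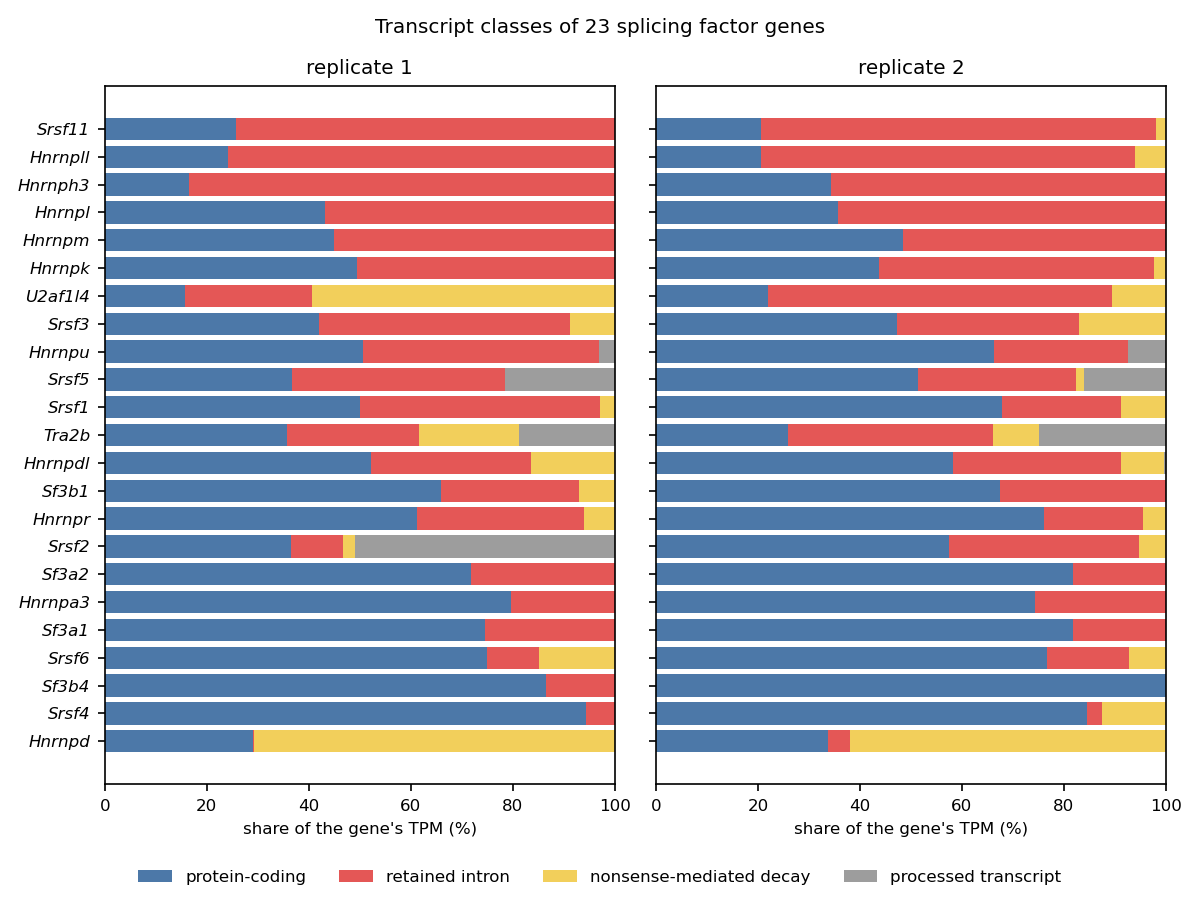
Share of each gene's summed transcript TPM by GENCODE class in replicate 1 and replicate 2, for the 23 genes with a retained-intron or NMD transcript in the table, ordered by the mean retained-intron share. Red bars fill more than 50% in both libraries for the top 6 genes, and the yellow bar of Hnrnpd shows its NMD share of 70.8% and 62.0%.

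Srsf11, which encodes an SR-related protein that binds U2AF, had retained-intron shares of 74.2% and 77.5% of its TPM. Hnrnpll had 75.8% and 73.3%, and Hnrnph3 had 83.4% and 65.6%. For Srsf11 and Hnrnpll the share also exceeded 50% of expected counts together with NMD, at 61.6% and 67.3% for Srsf11 and 78.5% and 80.5% for Hnrnpll. Hnrnpl, whose product binds CA repeats, had 56.8% and 64.2% of TPM. Hnrnpm had 55.1% and 51.7% and Hnrnpk had 50.6% and 53.9%. By counts these 3 genes were lower, with retained-intron plus NMD shares of 46.2% and 51.0% for Hnrnpl, 16.4% and 18.9% for Hnrnpm and 23.6% and 26.3% for Hnrnpk. Retained-intron and NMD shares together passed 50% of TPM in both libraries in 9 of the 23 (39.1%, with 12.3% of all genes), adding Hnrnpd, U2af1l4 and Srsf3 to the 6. Of the 19 deeper members 7 did so by TPM (36.8%, with 14% of deeper genes) and 4 by counts (21.1%). By counts 5 of the 23 passed (21.7%, with 7.63% of all genes and 7.82% of the deeper ones), namely Srsf3, Srsf5, Srsf11, Hnrnpll and U2af1l4.

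**Figure D3:**
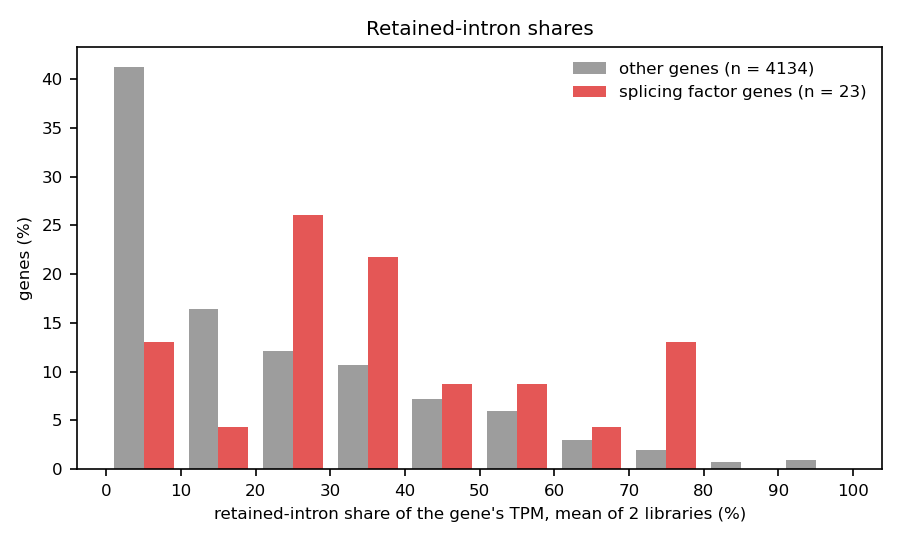
Mean retained-intron share of TPM over the 2 libraries in bins of 10 percentage points, for the 23 splicing factor genes and the 4134 other nuclear protein-coding genes with a retained-intron or NMD transcript, as a percent of each set. The bin from 0 to 10% holds 41.2% of the other genes and 13.0% of the splicing factor genes, which peak between 20 and 40%. The other genes include those with NMD transcripts only, which are at 0% by construction.

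The label retained intron does not say how much of a transcript is intron. Of the 28 such transcripts at 1 TPM or more in both libraries, 24 had the same length in M21, and a median of 53.6% of their bases lay in exons that coding-class transcripts of the same gene also carry. The part ranged from 7.61% in Sf3b1-202, a single-exon model, to 100% in Srsf1-203. Srsf1-203 held 47.0% and 18.3% of the Srsf1 TPM with no base outside exons of the coding class, so that share was assigned without any base that is intronic in every coding-class model. Hnrnpk-209, with 36.3% and 40.0% of the Hnrnpk TPM, has 107 bases outside coding-class exons. At the other end, Hnrnpll-207 has 3559 bases outside them, Srsf11-208 has 1988 and Hnrnpl-206 has 1608. Among the 24 transcripts, 1 overlapped an exon of another gene on the same strand (Hnrnpa3-205, with a microRNA gene at 0 counts) and 3 overlapped one on the other strand (Hnrnph3-206, Hnrnpk-204 and Srsf2-203). How the counting treated strand is not given in the sources used here.

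Of 70 retained-intron transcripts that could be compared with the leading coding transcript of their gene, 30 span at least 1 of its introns from end to end and 36 only start or end inside one. In transcripts at 1 TPM or more in both libraries, 11 distinct introns of 9 genes were spanned in full. All 11 begin with GT and end with AG, and 10 lie inside the coding region. Their median length was 430 bases, with a range from 78 to 1813, against a median of 365 over the 89 introns of the same coding transcripts. The splice sites are printed for the 8 introns whose transcript held at least 10% of the gene's TPM in both libraries. These junctions account for only part of the class shares. Hnrnpk-209, with 36.3% and 40.0% of its gene, and Hnrnpll-207, with 33.6% and 27.7%, span no intron of the leading coding transcript. No junction is printed for Srsf11, Hnrnpll, Hnrnpm or Hnrnpk. The 5′ site is given as 10 exonic and 10 intronic bases with the GT in capitals, and the 3′ site as 25 intronic and 5 exonic bases with the AG in capitals, 5′ to 3′ on the gene's strand, from GENCODE M21 transcripts on GRCm38.
Sf3b1 intron 4, 5′ site: tttgcagatgGTaattcttt
Sf3b1 intron 4, 3′ site: gtcctgttgctgttcttttctgcAGgaggg
Srsf5 intron 5, 5′ site: cagctggcagGTttgttgaa
Srsf5 intron 5, 3′ site: cttaacataattgtcttgtgttaAGgatct
Srsf6 intron 2, 5′ site: ggaagccgcaGTgagtcctt
Srsf6 intron 2, 3′ site: taattactcccttcatgtgataaAGgtggt
Srsf2 intron 2, 5′ site: taagaaaatgGTaatgtctg
Srsf2 intron 2, 3′ site: tgaacctctttcttttcaaacctAGatgaa
Hnrnpdl intron 6, 5′ site: gactacagcgGTaagaacac
Hnrnpdl intron 6, 3′ site: agtgaaactcatatcctttccacAGgtcag
Hnrnpa3 intron 3, 5′ site: ttctagagagGTattttaat
Hnrnpa3 intron 3, 3′ site: tgacttataattattttatttgtAGgattc
Hnrnph3 intron 4, 5′ site: tatgatggtgGTatgtgtgt
Hnrnph3 intron 4, 3′ site: ttctttttccttccattttatacAGgctat
Hnrnpl intron 11, 5′ site: tcaggcaaaaGTgagtcaga
Hnrnpl intron 11, 3′ site: ctctgctgtctcctgtttgattcAGgcgag
The share of C and T in the 20 bases before the AG had a median of 75% over the 11 introns. It was lowest, at 55%, in intron 5 of Srsf5, and it was 80% in intron 4 of Sf3b1 and 85% in intron 4 of Hnrnph3. Of the 8, the retained form of Srsf5 had the highest TPM in both libraries. The retained form of Hnrnph3 had the highest share of its gene, at 75.1% and 42.2%, against 36.0% and 26.1% for that of Srsf5. A relation between pyrimidine content and retention was not tested.

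Sf3b1 (chr1:54985169-55027481, minus strand) had similar shares of its main transcripts in both libraries. Its leading coding transcript, Sf3b1-201, had 18.2 and 9.98 TPM, which was 65.9% and 67.5% of the gene. The retained-intron transcript Sf3b1-203 had 5.49 and 3.15 TPM, or 19.9% and 21.3%, with log2 ratios between the libraries of 0.27 for the coding and 0.20 for the retained form once scaled for depth. It spans intron 4 of 24 (chr1:55014563-55016375, 1813 bases) inside the coding region. A further transcript, Sf3b1-208, carries a 56-base exon with a TGA stop codon inside the same intron and is annotated as NMD. It had 120.03 expected counts in replicate 1 and 0 in replicate 2, so the 7.06% NMD share of Sf3b1 in replicate 1 rests on 1 library. Together the classes outside coding took 34.1% and 32.5% of the Sf3b1 TPM.

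**Figure D4:**
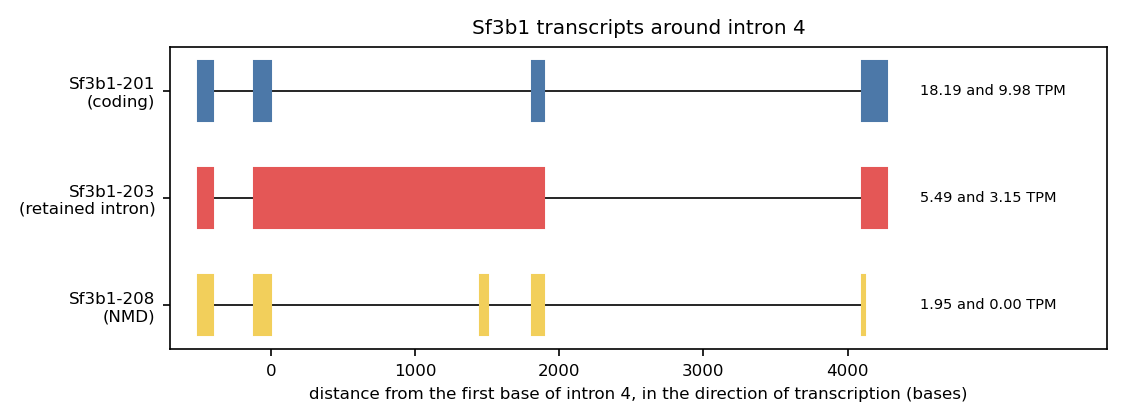
Exons (boxes) and introns (lines) of 3 Sf3b1 transcripts around intron 4, in bases from the first base of that intron in the direction of transcription, with the TPM of each in replicates 1 and 2. Sf3b1-203 covers the whole intron, and Sf3b1-208 has a 56-base exon within it.

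Retained introns in the SR genes followed several forms. Srsf5-212 spans intron 5 (chr12:80947866-80949094, plus strand, 1229 bases) and had 24.3 and 12.7 TPM, or 36.0% and 26.1% of the gene. By expected counts it was the leading Srsf5 transcript, with 9927 and 4874. Srsf6-204 spans intron 2 (chr2:162932143-162933425, plus strand, 1283 bases) and took 10.2% and 16.0% of its gene. The NMD transcript Srsf6-201, with 14.8% and 7.27%, has a 268-base exon inside that same intron. Srsf2-203 spans intron 2 (chr11:116850962-116852020, minus strand), which lies after the stop codon, and moved between libraries from 10.1% to 37.3% of TPM, with 1370 and 2053 counts. In the same gene the processed transcript Srsf2-205 had 919 counts and 51.0% of the TPM in replicate 1 and 0 counts in replicate 2. Of the SR genes with such transcripts, Srsf4 had the lowest combined share of retained introns and NMD in both libraries, at 5.63% and 15.5%.

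Among the hnRNPs, Hnrnph3-206 spans intron 4 (chr10:63017611-63018040, minus strand) and held 75.1% and 42.2% of its gene, from 436 and 116 counts. Hnrnpdl-206 spans intron 6 (chr5:100036196-100036480, minus strand) with 27.5% and 26.8%. Hnrnpa3-205 spans the 78-base intron 3 (chr2:75661818-75661895, plus strand) with 20.3% and 25.6%, and Hnrnpl-210 spans intron 11 (chr7:28821274-28821391, plus strand) with 13.0% and 19.3%. The share of the Hnrnpdl form was thus nearly level between the libraries, while that of the Hnrnph3 form was far higher in replicate 1.

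NMD transcripts were less prominent than retained introns. Over the 17 members with an NMD transcript in the table the median share was 2.96% in replicate 1 and 6.09% in replicate 2. The same medians over all 1851 nuclear protein-coding genes with an NMD transcript were 0% and 1.6%. Over the 668 of them with 1000 counts or more they were 2.77% and 4.17%. Over all 23 members, of which the rest are at 0 by construction, the median was 0% and 2.37%. The share passed 20% in both libraries only in Hnrnpd (1 of 23, 4.35%, with 5.87% of all genes). Among the deeper genes it was 1 of 19 members (5.26%), with 6.2% overall. The same gene alone passed 50%, as did 1.68% of all genes and 1.21% of the deeper ones. Hnrnpd, which encodes AUF1, a binder of AU-rich elements, had an NMD share of 70.8% and 62.0% of TPM. The stop codons of the NMD transcripts at 5% or more of TPM in both libraries, with models that match M21, are shown with 12 bases on either side and the stop in capitals, together with that of Sf3b1-208. Hnrnpd-204, with the same window as Hnrnpd-208, and Gm49396-203, a read-through transcript filed under U2af1l4 with 14.3% and 10.6%, are not shown separately.
Hnrnpd-208: tacaaaccatacTAAattattccattt
Hnrnpdl-205: gctggaccccagTAGccttccccacta
Srsf6-201: gccttttgccatTAGacgcagggtgat
Sf3b1-208: tattctgctgctTGAagtcagaactgc
Hnrnpd-208 (7.70 and 5.37 TPM) uses a stop that coding transcripts also use. That stop lies in exon 6 of 8, with 137 bases between it and the last exon junction. Hnrnpd-204 shares that stop and distance, with 8.30% and 24.5% of TPM. The stop of Hnrnpdl-205 (16.5% and 8.33%) lies in its first exon, 860 bases before the last junction, that of Srsf6-201 lies 534 bases before it and that of Sf3b1-208 lies 116 bases before it. Srsf3-201, the NMD form of Srsf3, had 8.72% and 17.1%, and Tra2b-206 had 19.5% and 9.0%, but their lengths differ from M21 and no exon was assigned to them.

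Processed transcripts, which have no annotated reading frame, took large shares in a further pair of genes. In Hnrnph1 they held 74.7% and 76.0% of TPM and 71.3% and 72.3% of expected counts. In Srsf10 they held 69.7% and 78.1% of TPM but 34.5% and 39.9% of expected counts, of which the coding class took 65.5% and 60.1%. By TPM the leading Srsf10 transcripts were Srsf10-207 with 15.4 and 16.3 TPM and Srsf10-206 with 7.33 and 18.5 TPM, and the leading coding transcript was Srsf10-204 with 10.5 and 11.0 TPM. By expected counts Srsf10-204 led in both libraries, with 4865 and 4757. The most abundant transcript lay outside the coding class in both libraries in 10 of the 36 genes with more than 1 transcript (27.8%), where 11.2% of all genes and 10.6% of those with 1000 counts or more did.

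Gene totals were close between the libraries and transcript splits were not. After scaling with TMM, which sets the library sizes so that most genes do not differ, 0 of the 44 detected genes were 2-fold apart, with 18.8% of the 9480 nuclear protein-coding genes with a mean of 50 counts or more (9.91% higher in replicate 1 and 8.85% in replicate 2) and 1.39% of those with a mean of 1000 or more. The log2 ratio of replicate 1 over replicate 2 had a median of -0.03 and ran from -0.69 in Hnrnpa0 to 0.62 in Hnrnpab, and 17 of the 44 were higher in replicate 1. Deposited TPM would place 6 genes past 2-fold, all higher in replicate 1: Hnrnpab, Srsf2, Srsf11, Sf3a3, Hnrnph3 and U2af1, with log2 ratios from 1.01 to 1.46. At the transcript level, 74 of the 164 member transcripts with 100 counts or more in at least 1 library (45.1%) were 2-fold or more apart, close to the 49.8% over all such transcripts. For 30 of them (18.3%, with 20.3% overall) the other library had fewer than 3 counts. Hnrnpa3-202 had 0 and 1991 counts, Srsf5-206 had 797 and 0 counts and Srsf9-204 had 0 and 369 counts.

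**Figure D5:**
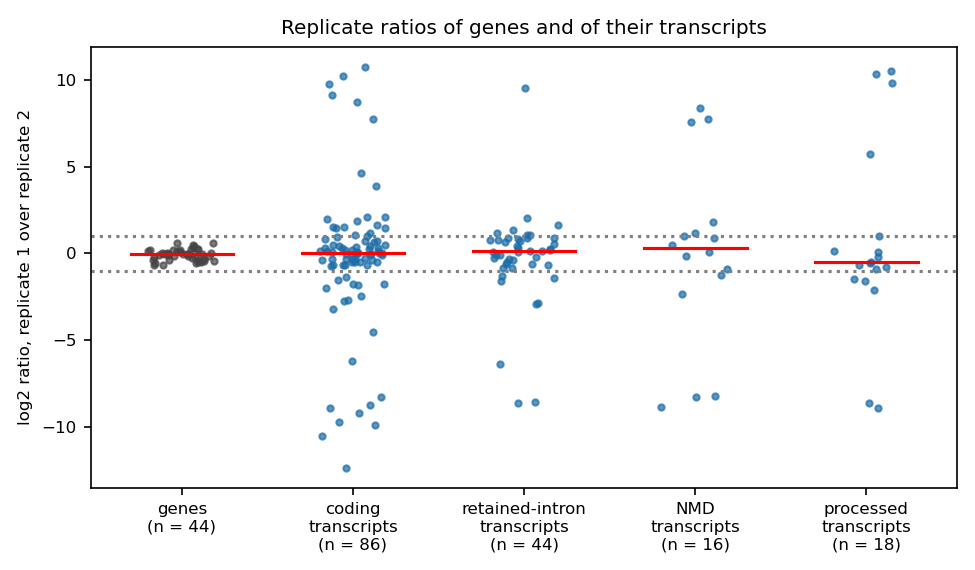
Log2 ratio of replicate 1 over replicate 2 after TMM scaling with a prior count of 0.5, for the 44 detected genes and for their transcripts with 100 counts or more in at least 1 library, by class, with each median as a red line and dotted lines at 2-fold. The genes all lie within 2-fold, and transcripts with 0 counts in 1 library form the far points.

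The leading transcript was the same in both libraries for 26 of 36 genes (72.2%, with 57.9% of all genes and 69.2% of the deeper ones). It differed for Srsf1, Srsf2, Srsf5, Srsf9, Srsf10, Hnrnpa3, Hnrnpab, Hnrnph1, Hnrnpr and U2af1l4. For Hnrnpab the leading form was Hnrnpab-203 with 40.6 TPM in replicate 1 and Hnrnpab-201 with 14.9 TPM in replicate 2. Hnrnpc-201 and Hnrnpc-202 differ in length by 1 base. The deposited interval of Hnrnpc-201 ran from 0.46 to 10.3 TPM in replicate 1, so the split of this gene is uncertain. Counts that are not whole, the sign of reads shared with other loci, were found in 16 of the 45 genes. Another gene overlaps 10 of the 45 on the same strand and 18 on the other strand. Hnrnpm shares its strand with March2, which had 11820 and 8524 counts, and Srsf4 with A930004J17Rik, which had 4881 and 2751 counts, so the division of reads at these loci is uncertain.

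The rest of the splicing pathway was read from lists of genes, each described by its 3 most abundant members. Over all nuclear protein-coding genes 23.9% reached 1 TPM and 4.79% reached 10 TPM in both libraries. Of those with a retained-intron or NMD transcript, 27.9% passed a retained-intron share of 20% in both libraries. Among those with 1000 counts or more 41% did. The lists were not tested against these shares. Of the partners of SF3 and U2AF at the branch site, 15 of 16 reached 1 TPM in both libraries, and the retained-intron share passed 20% in both in 2 of the 8 with such transcripts. Rbm5, an inhibitor of complete spliceosome assembly, had 50.01 and 30.05 TPM with retained-intron shares of 77.7% and 74.9%. Sf1, which binds the branch site before the U2 snRNP does, had 29.7 and 13.4 TPM with shares of 41.9% and 25.5%, and the helicase gene Dhx15 had 14.3 and 11.1 TPM. Rbm5 and Sf1 were the 2 of this list past 20%.

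U1 and U5 core genes reached 1 TPM in 12 of 14, with 5 of 11 past 20%. Luc7l3 had 80.9 and 46.7 TPM with shares of 28.3% and 37.6%, Luc7l2 had 61.2 and 44.8 TPM with 35.0% and 39.0%, and Snrnp70, the U1 protein that SR proteins contact, had 24.2 and 16.5 TPM. Kinases and import factors of SR proteins reached 1 TPM in 8 of 10, with 4 of 6 past 20%. Clk1, which phosphorylates SR proteins in the nucleus, had 51.3 and 34.1 TPM with shares of 68.0% and 60.1%. Its relative Clk4 had 26.4 and 16.8 TPM with 62.7% and 51.9%, and Dyrk1a had 15.0 and 9.55 TPM with 14.6% and 10.8%. Clk1 and Clk4 thus passed 50% in both libraries, and Dyrk1a did not pass 20% in either.

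SR-related nuclear matrix proteins reached 1 TPM in 15 of 16, with 6 of 10 past 20%. Rbm39, a relative of U2AF, had 56.7 and 47.2 TPM with shares of 27.7% and 34.6%. Srrm1 had 62.8 and 30.0 TPM with 30.0% and 47.4%, and Acin1 had 58.4 and 30.0 TPM with 49.3% and 43.2%. All 3 passed 20% in both libraries. Other splicing regulators reached 1 TPM in 22 of 26, with 6 of 14 past 20%. Sfpq had 117.5 and 66.6 TPM, Ewsr1 58.6 and 41.8 TPM and Tardbp, which encodes TDP-43, 41.7 and 38.6 TPM with an NMD share of 21.8% and 50.6%. NMD factors were lower: 13 of 15 reached 1 TPM and 0 of 15 reached 10 TPM in both libraries. These limits are on the deposited TPM, which was not rescaled for the lists. The retained-intron share passed 20% in both libraries in 2 of 6. Eif4a3, a core component of the exon junction complex, had 14.2 and 8.38 TPM, Smg6, the NMD endonuclease, had 12.2 and 7.54 TPM, and Upf3b had 12.7 and 5.86 TPM.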

How the data were processed

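The deposited tables give expected counts, TPM and the interval bounds of TPM per gene and per transcript, in the columns that RSEM writes per the file headers. Reads were placed on mm10 with the GENCODE M4 annotation, per the deposited readme. For the quantifier, the aligner and the use of strand, the sources used here give no name or setting. The deposited signal values are those interval bounds and were used only to describe precision, and transcript and effective lengths were read from the deposited tables.

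Rows were matched to GENCODE M21 by identifier: 42462 of 43346 gene rows matched. Expected counts were rounded and scaled with TMM in edgeR 4.0.16 (R 4.3.3), and log2 ratios used a prior count of 0.5. DESeq2 1.42.0 size factors were an alternative. No test was run, because there was 1 group. Class shares used genes with 50 counts or more in both libraries. Introns and splice sites came from M21 models with the deposited length. Scripts were tested on simulated data. Genes named with values were the 4 highest and 3 lowest SR and hnRNP genes, all other families, genes with over 50% retained-intron plus NMD TPM, replicate or leading-transcript differences, the pairs and the 3 highest of each list; other members named were chosen after their values were seen. The members, lists and rules were chosen with earlier results of these data known. Other alternatives left out each library, changed the count minimum or the unit, or left out U2af1l4 (added after seeing the data, as was the comparison with genes of 1000 counts or more). Depth was 62576357 and 36889517 expected counts, and 35 members had 1000 counts or more in both libraries.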

Additional observations from a re-analysis of the deposited data

How the results depend on the processing

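The count of genes at 10 TPM in both libraries was 24. It was 42 with TPM rescaled over nuclear protein-coding genes or a limit of 1 TPM, and it was 24 to 31 in single libraries. The median retained-intron share was 31.8% over both libraries, 17.6% by expected counts, 32.8% with a minimum of 200 counts and 31.2% to 32.5% in single libraries. The median NMD share ran from 0% to 2.37% in single libraries. No gene was 2-fold apart after TMM scaling and 6 were by deposited TPM. The log2 ratio of Sf3a1 over Sf3a3 was -0.998 by TPM and 0.28 by counts, which are not divided by length. The other 27 alternatives of the main counts and medians moved them by less than the spread or by under 1.5 times, and of the single pairs 26 kept their values within that spread and 21 moved. No paired analysis was possible because there was 1 group. Of the members' transcripts with 100 counts or more in 1 library, 45.1% were 2-fold apart, and the cause was not tested.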
